A study of Mus musculus with 9 samples.

Results

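Rad21 sites called in pre-B cells and in both kinds of thymocyte were taken from 3 lists of ChIP-seq peaks. Peaks of the 3 lists on chromosomes 1 to 19 were merged wherever they overlapped by 1 bp or more, and merged sites holding a peak of every list were kept. The sites were thus chosen by the presence of Rad21 peaks in these lists, and what the Rad21 lists say of them is given as a description. Of 45491 merged sites, 8546 were in all 3 lists, which is 18.8% (exact 95% interval 18.4 to 19.1, counting error only). The share rests on the short DN list: it was 33.5% (5026 sites) with lists of equal length and 43.8% (19878 sites) with the DN list left out, the latter chosen after seeing the data. Another 11330 sites held peaks of the pre-B and DP lists but not of the DN list, 15297 were in the DP list alone and 9369 in the pre-B list alone. Only 432 were shared by DN and DP alone, 377 by pre-B and DN alone, and 140 were in the DN list alone.

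All cells came from C57BL/6 mice without RAG1, which cannot rearrange their antigen receptor genes. Pre-B cells were from RAG-/-µ+ bone marrow, where a rearranged IgM transgene carries cells past the pro-B stage. DN cells were Rag1-/- thymocytes, CD4-CD8-, and DP cells were CD4+CD8+ thymocytes of Rag1-/- mice with a TCRb transgene, so that each later stage rests on a transgene and not on a normal rearrangement. CTCF peaks came from the same kind of pre-B cells and from RAG1-/- pro-B cells after 7 days in culture with IL7. Bone marrow donors were 6 to 14 weeks old and thymus donors 4 to 8 weeks. Each antibody and cell type had 1 library, so there is no measure of the spread between mice and no test between cell types was possible. Peak lists hold no expression values, so the identity of the cells could not be checked against marker genes here, and CTCF in thymocytes was not analysed.

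Cohesin is a ring-shaped complex that holds DNA strands together and also extrudes loops of chromatin, and Rad21 is the subunit that closes the ring. CTCF is a zinc finger protein that binds a long, directional DNA motif and halts cohesin there, so that cohesin collects at CTCF sites and loops tend to form between motifs that face each other. In lymphocyte progenitors such loops shape the antigen receptor loci before they rearrange.

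The sequences below surround the best match to the de novo HOMER CTCF consensus of 12 bases, at the 6 sites with a match that ranked highest by the lowest of their 3 percentiles, a percentile being the share of a list with a lower score. Each window is from the plus strand of NCBIM37 (mm9), written 5′ to 3′, and the capitals mark the match. The study detected this consensus in pre-B and pro-B CTCF peaks, so a match is not independent of the CTCF lists. The windows are shown because several of the results that follow rest on this motif or its strand.

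Ramp1 promoter, chr1:93077461-93077561: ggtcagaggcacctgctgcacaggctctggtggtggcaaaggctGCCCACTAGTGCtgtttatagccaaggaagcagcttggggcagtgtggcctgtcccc
Arnt2 intron, chr7:91421401-91421501: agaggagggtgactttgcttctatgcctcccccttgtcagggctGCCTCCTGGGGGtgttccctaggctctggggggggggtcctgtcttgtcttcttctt
2610002J02Rik promoter, chr4:154623420-154623520: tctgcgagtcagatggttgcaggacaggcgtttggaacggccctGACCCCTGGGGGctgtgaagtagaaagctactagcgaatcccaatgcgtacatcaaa
outside genes, nearest start Gm6772, chr12:88136802-88136902: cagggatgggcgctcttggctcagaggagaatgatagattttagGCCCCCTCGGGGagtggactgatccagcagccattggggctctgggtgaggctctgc
Sept9 exon, chr11:117219752-117219852: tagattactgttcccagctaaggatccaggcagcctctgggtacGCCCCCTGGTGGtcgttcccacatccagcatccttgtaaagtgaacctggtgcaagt
inside Gm20388, chr8:125354452-125354552: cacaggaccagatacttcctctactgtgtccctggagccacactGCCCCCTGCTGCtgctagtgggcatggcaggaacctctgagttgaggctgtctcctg

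All 6 matches lie on the plus strand. The Sept9 site fits the consensus with 0 mismatches and the other 5 with 2. For contrast, 2 sites with Rad21 in all 3 lists but no CTCF peak in either CTCF list are shown around the middle of the shared part, and neither site holds a match within 2 mismatches.

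outside genes, nearest start Gm6728, chr6:136417144-136417244: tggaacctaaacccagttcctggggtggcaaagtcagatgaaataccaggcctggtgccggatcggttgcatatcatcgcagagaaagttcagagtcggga
outside genes, nearest start Fam174a, chr1:97164771-97164871: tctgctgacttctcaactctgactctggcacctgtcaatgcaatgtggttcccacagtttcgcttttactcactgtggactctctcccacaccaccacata

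The motif was found at most of the shared sites. A match within 2 mismatches, searched on both strands, was present in 5365 of 8546 sites, or 62.8% (61.7 to 63.8), beside 38.6% over all merged Rad21 sites. Sequence of the same width placed 2000 bp beyond the shared sites and free of peaks held a match in 9.71% of 7292 windows (9.04 to 10.4). The share was 49.0% at sites in the pre-B and DP lists, 38.8% at sites in pre-B cells alone and 17.0% at sites in DP alone. A perfect match was present in 334 shared sites, or 3.91%, beside 1.93% over all sites. With 3 mismatches the share was 94.5%, beside 81.6% over all sites and 57.9% of the neighbouring windows, so this looser search separates the sites from their surroundings less. The shared sites were also wider than the rest, and a wider site offers more positions to a match. Neighbouring windows of equal width held one in 7.00% over all sites, 8.12% for sites of pre-B and DP, 6.02% for pre-B alone and 5.43% for DP alone.

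The forms of the motif were many. Of 5086 shared sites whose best match had a single strand, the most common 12 bases were carried by 251, or 4.94%. The 3 most common forms, given on the strand of the consensus, were as follows, in lower case because every base belongs to the match.

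form of 251 sites: gccctctgctgg
form of 216 sites: gccccctggtgg
form of 211 sites: gccacctagtgg

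Position 11 of the consensus, counted from 1 at its 5′ end, was kept in 98.8% of the matches and position 6 in 98.0%, while position 4 was kept in 68.4% and position 5 in 70.1%. The search allowed at most 2 mismatches in 12 bases, which itself holds these shares high. Matches were split evenly between strands, with 2522 on the plus strand, 2564 on the minus strand and 279 tied.

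CTCF, which the choice of sites did not use, was called at nearly every shared site. A pre-B CTCF peak overlapped 8505 of the 8546 sites, or 99.5% (99.3 to 99.7), beside 64.2% over all merged Rad21 sites. A CTCF peak of IL7-cultured pro-B cells overlapped 8529, or 99.8% (99.7 to 99.9), beside 71% over all sites. Both lists had a peak at 8497 sites, or 99.4% (99.2 to 99.6), beside 62.4% over all sites. Sites in pre-B and DP but not DN had both in 86.3% (85.7 to 86.9), sites in pre-B alone in 74.1% and sites in DP alone in 16.7%. The 377 sites of pre-B and DN came nearest to the shared sites, with 96.3% (93.8 to 98.0), and the 432 sites of DN and DP had 42.8% (38.1 to 47.6). The IL7 list alone had a peak at 32 shared sites, beside 8.54% of all sites, the pre-B list alone at 8, beside 1.74%, and neither list at 9, or 0.105% (0.0482 to 0.200), beside 27.3%. Each Rad21 list was next cut to the number of peaks in the DN list. The IL7 CTCF list was cut to the length of the pre-B CTCF list. Then 5024 of 5026 shared sites and 82.1% (81.4 to 82.9) of 9993 other sites had both, against 53.9% of other sites in the full lists.

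Higher-scoring Rad21 peaks carry CTCF more often, so the shared sites were set beside other sites of the same rank. Each list was split into deciles by MACS score, which the authors' peak caller derives from the p-value of a peak against input and which was ranked here within a list. In the DP list, 98.1 to 100% of shared sites had CTCF in both lists in every decile, while the share of other sites went from 31.1% in the lowest decile to 68.6% in the ninth and 66.4% in the highest. In the pre-B list the difference was widest in the lower deciles. In its lowest decile 75.6% of 78 shared sites (64.6 to 84.7) had both CTCF peaks and 54.6% of 2863 other sites (52.8 to 56.5) did. In its highest decile the values were 99.96% of 2637 (99.8 to 100) and 99.1% of 340 (97.4 to 99.8), intervals that overlap. One input served both pre-B libraries, and both CTCF lists are from B lineage cells while the DP list is not. The part of either in this contrast was not tested. In the DN list the shared sites had 98.7 to 99.9% and the few other sites 43.5 to 75%.

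**Figure D1:**
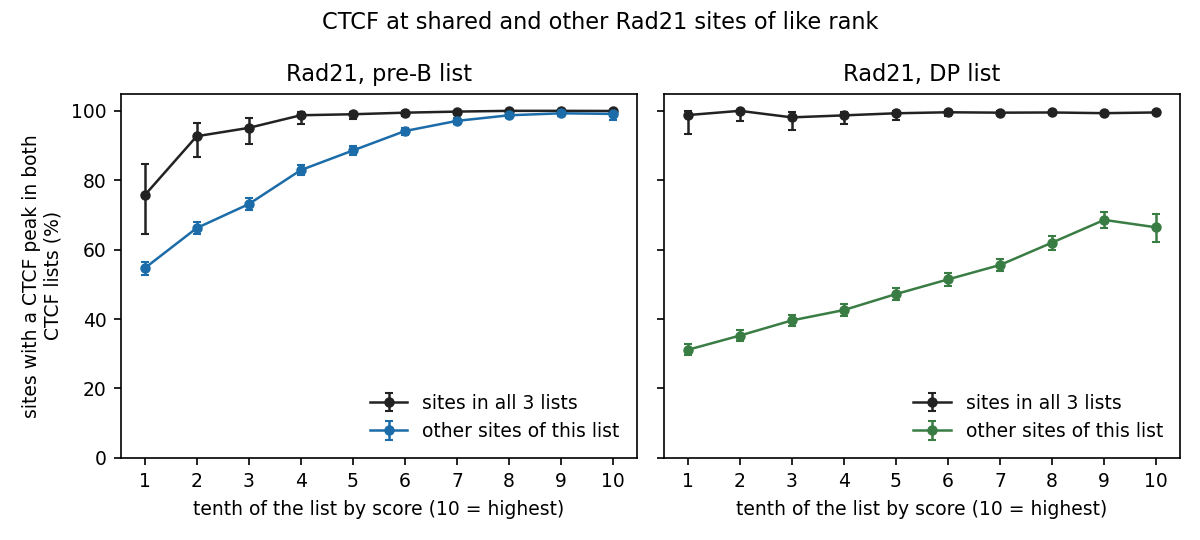
Share of Rad21 sites with a CTCF peak in both CTCF lists (%, y axis) by decile of the Rad21 score (x axis, 1 lowest), for sites in all 3 Rad21 lists (black) and the other sites of the list (colour), with exact 95% intervals for counting error. In the DP list the shared sites stay at 98.1% or above while the other sites do not pass 68.6%, and in the pre-B list both reach 99% in the top decile.

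Read from the CTCF side, shared sites were more common under stronger CTCF peaks. They took up 62.8% of the highest decile of pre-B CTCF peaks and 1.43% of the lowest decile. In IL7-cultured pro-B cells the shares were 53.3% and 1.21%. In the highest decile of pre-B CTCF peaks, 32 of 4116 had no Rad21 site of any list. The median CTCF peak at a shared site stood at percentile 82.0 of the pre-B CTCF list (quartiles 68.2 and 91.9) and at percentile 88.2 of the IL7 list (79.4 and 94.6). At sites of pre-B and DP alone the medians were 65.4 and 76.8.

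**Figure D2:**
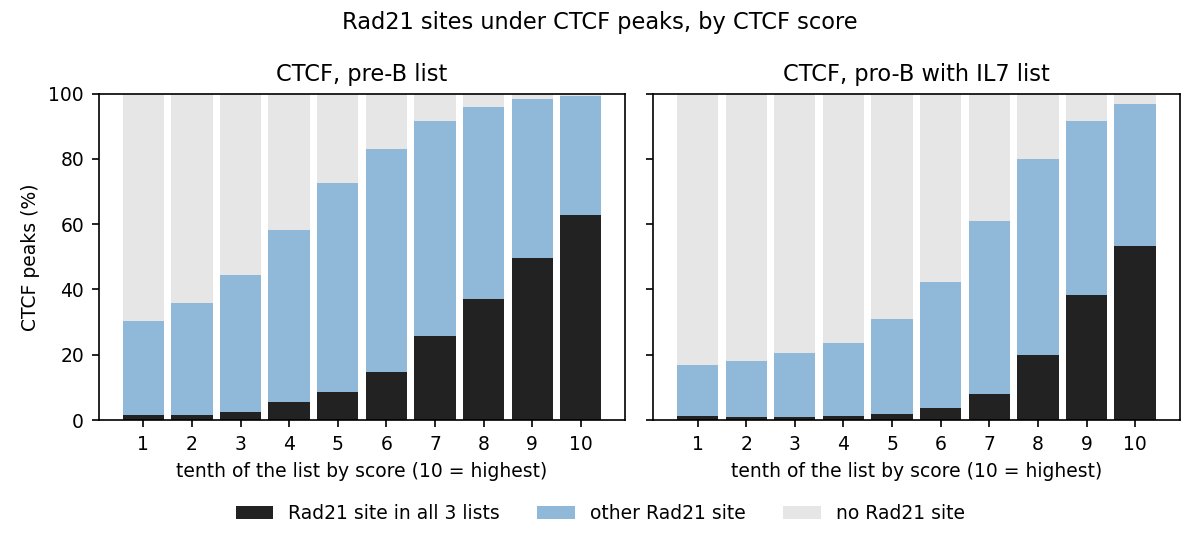
CTCF peaks (%, y axis) by decile of the CTCF score (x axis), split into peaks at a Rad21 site of all 3 lists (black), at another Rad21 site (blue) and at none (grey), for pre-B cells (left) and IL7-cultured pro-B cells (right). The black part grows from 1.43% to 62.8% on the left and from 1.21% to 53.3% on the right.

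The 9 shared sites without a CTCF peak in either list stood lower in the pre-B list than most. Of the 9, 2 were at or above the 50th percentile of the pre-B list, against 88.2% of all shared sites. In the DN list 1 was, against 53.9%, and in the DP list all 9 were, against 89.7%. The site near Gm6728 stood at percentile 60.1 in pre-B, 36.9 in DN and 80.1 in DP, and the site near Fam174a at 56.5, 35.7 and 86.0. The site at the promoter of Tbl1xr1, which encodes a subunit of nuclear receptor corepressor complexes, was 3820 bp wide and stood at 47.1, 34.0 and 99.9. The other sites lay at the promoters of Mex3b and Lass6, in introns of Kcnd2 and Ccdc162, and outside genes near A130050O07Rik and Mark1. Of the 9, 3 were within 1 kb of a transcription start, beside 7.43% of shared sites and 17.7% of all Rad21 sites, and 4 held a match within 2 mismatches, beside 62.8% and 38.6%. Those 4 were 1374 to 3820 bp wide, against a median of 796 bp for shared sites, and a wider site offers more positions to a match. Thymocyte CTCF at these places was not analysed here.

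The middle of the Rad21 peak and the middle of the CTCF peak fell, at the median, on opposite sides of the motif. With distances counted along the direction in which the motif points (the reverse complement of the consensus is its usual forward form, so a plus match points to lower coordinates), the median Rad21 middle lay ahead of the motif by 23.5 bp in pre-B cells (95% interval of the median 20.5 to 26.0, n = 5046), 24.0 bp in DN (22.0 to 26.0, n = 5047) and 35.0 bp in DP (32.5 to 37.5, n = 4965). The median CTCF middle was at -21.5 bp in pre-B cells (-24.0 to -18.5, n = 4973) and at -27.5 bp in IL7-cultured pro-B cells (-30 to -25.5, n = 4807), which is behind the motif. Site by site, the Rad21 middle was ahead of the pre-B CTCF middle by a median of 43.5 bp in pre-B, 46.0 bp in DN and 59.0 bp in DP, and was ahead at 67.8%, 67.9% and 71.5% of sites. The rule used neither CTCF peaks nor strand, and the offset was looked at only after the strands had been computed. The sites of pre-B and DP alone had the same arrangement at smaller distances, with Rad21 ahead of pre-B CTCF by 29.5 bp in pre-B cells (26.5 to 33.0) and 39.5 bp in DP (36.0 to 43.5). The files hold no summits, so the middle of a peak stands for its place, and only sites with 1 peak of the list and a stranded match were used.

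**Figure D3:**
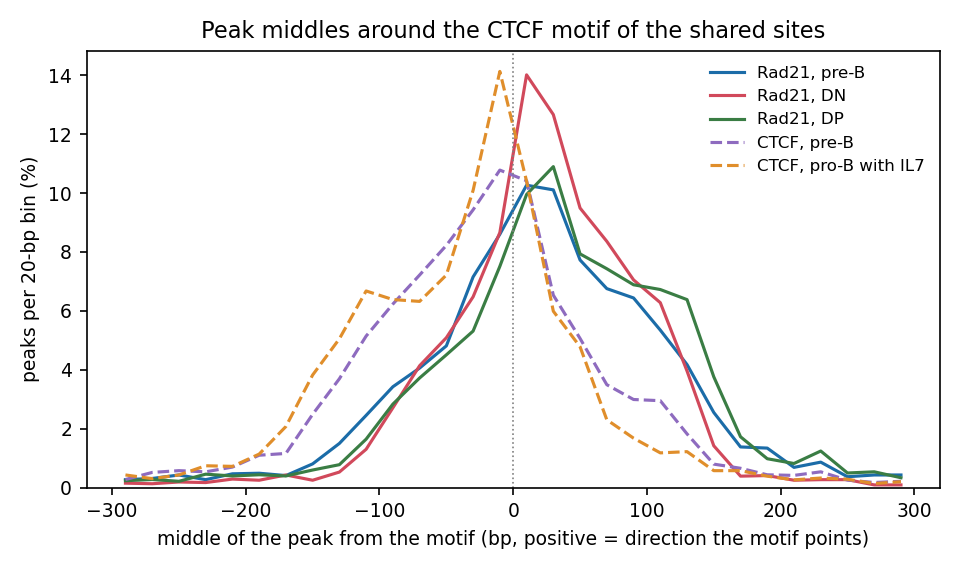
Peaks per 20-bp bin (%, y axis) by the distance of their middle from the CTCF motif (bp, x axis, positive in the direction the motif points) at the sites in all 3 lists, for the 3 Rad21 lists (solid lines) and both CTCF lists (dashed lines). The Rad21 curves lean to the right, with medians of 23.5 to 35.0 bp, and the CTCF curves to the left, with medians of -21.5 and -27.5 bp.

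The ranks of the sites in the 3 Rad21 lists helped to choose them and are given as a description. The DN list is the shortest, with 9557 peaks against 29811 in pre-B and 35982 in DP, and 90.05% of its peaks lay in shared sites, against 28.9% and 24.2%. The median site therefore stood near the middle of the DN list, at percentile 53.7 (quartiles 28.2 and 77.2). It stood high in the others, at 82.1 in pre-B (66.3 and 92.0) and 84.7 in DP (70.0 and 93.4). Sites at or above the 50th percentile of every list numbered 4171, or 48.8%, and 27 were at or above the 99th. Across the 8546 sites Spearman's rank correlation was 0.48 between pre-B and DN and 0.55 for both pairs with DP. These values share the choice of sites. Against the CTCF percentile, the rank correlation was 0.67 for pre-B Rad21 with pre-B CTCF, libraries with 1 input between them, and 0.37 for DP and 0.29 for DN Rad21 with the same CTCF list. With the IL7 CTCF list, which has its own input, the values were 0.43, 0.27 and 0.25.

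**Figure D4:**
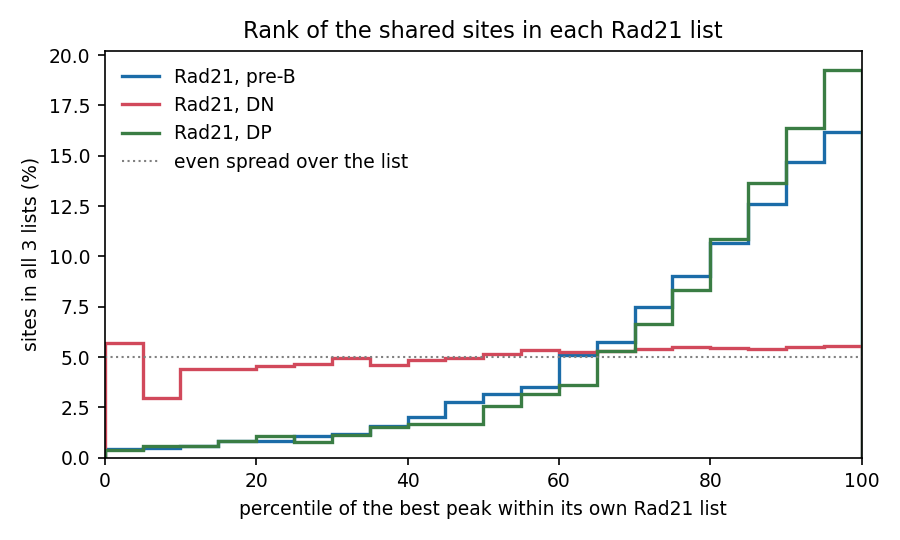
Sites in all 3 lists (%, y axis) by the percentile of their best peak within each Rad21 list (5-point bins, x axis), with a dotted line at the 5% of an even spread. The DN line stays near the dotted line, while the pre-B and DP lines climb to medians of 82.1 and 84.7.

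The sites that stood highest in every list lay in or near genes of varied function. The highest was the 3673-bp site at the promoter of Ramp1, a coreceptor that turns the calcitonin receptor-like receptor into a receptor for CGRP, with scores of 2652 in pre-B, 800.6 in DN and 3100 in DP, all at percentile 99.8 or above. The value of 3100 is tied among several DP peaks, and 39 of that list reach it, so it does not rank them. Next came an intron of Arnt2, a partner of bHLH-PAS transcription factors, with scores of 2448, 819.0 and 3100. The promoter of 2610002J02Rik had 2500, 735.3 and 2687. A site outside genes on chromosome 12, 59687 bp from the start of Gm6772, had 2906, 750.5 and 2632, and a site in an exon of Sept9, a septin of the cytoskeleton, had 2304, 714.3 and 2543. An intron of Tmem189, 3531 bp from the start of Cebpb, which encodes a bZIP factor of myeloid cells, had 2194, 866.1 and 3100. The remaining 6 of the top 12 lay inside Gm20388, near Tmcc2, in Pmepa1, near Arl4c, in Lif, which encodes a cytokine of the IL6 family, and in Ctif. All 12 had CTCF in both lists, as did 99.4% of all shared sites. A match was held by 11 of 12, beside 62.8%, and 2 of 12 were at a promoter, beside 7.43%. These 12 sites were 816 to 3673 bp wide, against a median of 796 bp, and a wider site offers more positions to a match.

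Some shared sites ranked far higher in 1 list than in the others. Percentiles of lists of unequal length are not on 1 scale and helped to choose the sites, so these sites are named as a description only. The widest gaps for pre-B were in an intron of Snx29, with percentiles of 80.8 in pre-B, 4.11 in DN and 0.817 in DP, near Bmper (94.2, 19.2 and 17.0) and in an intron of Prr5 (90.8, 4.11 and 16.8). For DP they were near Abl2 (7.91, 3.89 and 93.8), in a coding exon of Hes7 (1.07, 2.81 and 84.8) and in an intron of Ganc (3.32, 0.178 and 82.2). For DN they were near Col14a1 (8.82, 93.6 and 37.8), in Dock1 (20.8, 75.1 and 3.89) and in Kcnma1 (5.61, 85.4 and 34.1). All 9 of these sites had a CTCF peak in both lists, beside 99.4% of all shared sites. Their pre-B CTCF peaks ranged from percentile 9.44 at Kcnma1 to 97.3 at Prr5, with 67.8 at Hes7.

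At the edges of the rule, the lowest DN scores among the shared sites were 86.45, 86.49 and 86.52, at sites in Pinx1, near Atp5o and near Eno4, and 86.45 is the lowest score in the DN list. The lowest scores of the pre-B and DP lists are 59.74 and 57.72, so the DN list also starts from a higher score. Outside it, 234 of the 11330 sites of pre-B and DP had a DN peak within 1000 bp that did not overlap, the nearest 24 bp away by Tjp3 with a DN score of 90.8. The smallest stretch common to peaks of all 3 lists was 8 bp, at Zmiz1, and 4 sites were joined by chaining with no common base. At 8537 sites, or 99.9%, the common stretch covered 50% or more of the narrowest peak.

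The merged sites had a median width of 796 bp (quartiles 681 and 926), beside 627 bp over all merged sites, but a span that must hold 3 peaks is wider by the rule itself. The median single peak in them was 723 bp wide in pre-B cells, against 582 bp for the other peaks of that list, 439 against 377 bp in DN and 594 against 522 bp in DP, and the median stretch common to the 3 was 375 bp. A single peak of each list made up 8301 sites, or 97.1%, and in 75.9% of those the DN peak was the narrowest. The middle of that common stretch lay within 50 bp of the motif at 57.9% of matched sites (56.6 to 59.2), against 45.5% (44.1 to 46.8) for the middle of the merged site.

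Fewer shared sites lay at promoters than Rad21 sites as a whole, but not fewer than in every other class. The middle of the site was within 1 kb of the start of a protein-coding transcript at 635 of 8546, or 7.43% (6.88 to 8.01), beside 17.7% over all merged sites. The share was 18.9% at sites of pre-B and DP, 12.5% of DN and DP, 9.88% in pre-B alone and 27.8% in DP alone. It was 3.98% (2.24 to 6.48) for pre-B and DN, below that of the shared sites, and 7.14% (3.48 to 12.7) for DN alone. At like rank in the DP list, 2.50 to 8.80% of shared sites and 21.9 to 24.7% of other sites of a decile were at a promoter. In the pre-B list the shares were 8.97% and 19.1% in the lowest decile but 5.92% and 7.65% in the highest, and the intervals overlapped in most deciles. In the DN list they were 6.34 to 8.76% and 0 to 14.3%, with intervals that overlapped in every decile. Introns held 36.6% of the shared sites, against 36.2% of all, exons 4.59% against 4.25%, and space outside genes 48.8% (47.7 to 49.9) against 39.4%. Outside genes also lay 55.2% (49.996 to 60.3) of the sites of pre-B and DN and 49.3% (40.7 to 57.9) of those in DN alone. The median distance to the nearest start was 16969.5 bp, beside 14466 bp over all sites, although 8.02% of the shared sites and 10.3% of all sites were over 100 kb away. Their median GC content was 47.9%, against 48.9% over all sites, with class medians from 45.3% for pre-B and DN to 50.9% for DP alone.

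Neighbouring shared sites had a median spacing of 94024 bp (quartiles 35856 and 227394) over 8527 pairs. Among the pairs with a stranded motif at both, close neighbours seldom faced each other. Under 10 kb, 17 of 309 pairs were convergent, that is, with motifs pointing toward each other, or 5.50% (3.24 to 8.66), while 36.6% (31.2 to 42.2) were divergent. From 10 to 50 kb the shares were 21.4% and 32.05%. From 50 to 200 kb they were 33.2% (30.6 to 35.9) and 26.3% (23.8 to 28.8), with convergent pairs more common than divergent ones. From 200 kb to 1 Mb they were 34.4% (30.7 to 38.2) and 21.7% (18.6 to 25.1). Over 1 Mb, among 152 pairs, both were 27.0%. The other pairs were tandem, with both motifs pointing the same way, the most common kind at every distance with this limit of 2 mismatches. Tandem shares were 57.9%, 46.5%, 40.5%, 43.9% and 46.1%, from the nearest to the farthest pairs. Over all distances 27.5% (25.9 to 29.1) were convergent, 27.8% (26.2 to 29.4) divergent and 44.7% tandem. With at most 1 mismatch, 0 of 52 pairs under 10 kb were convergent, which allows up to 6.85%. From 200 kb to 1 Mb 30.4% of 79 such pairs were convergent and 31.6% divergent. The first of these has an interval of 20.5 to 41.8, which includes 34.4%. Sites of pre-B and DP alone, paired among themselves, were convergent at 19.5% (15.6 to 23.8) under 10 kb, an interval that does not overlap that of the shared sites, and at 25.6% (21.6 to 30) from 200 kb to 1 Mb. From 10 to 50 kb their share of 21.6% was close to the 21.4% of the shared sites, and over 1 Mb it was 34.4% (26.3 to 43.1), above the 27.0% (20.1 to 34.8) of the shared sites with overlapping intervals. The pairs do not show which sites touch in the nucleus.

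**Figure D5:**
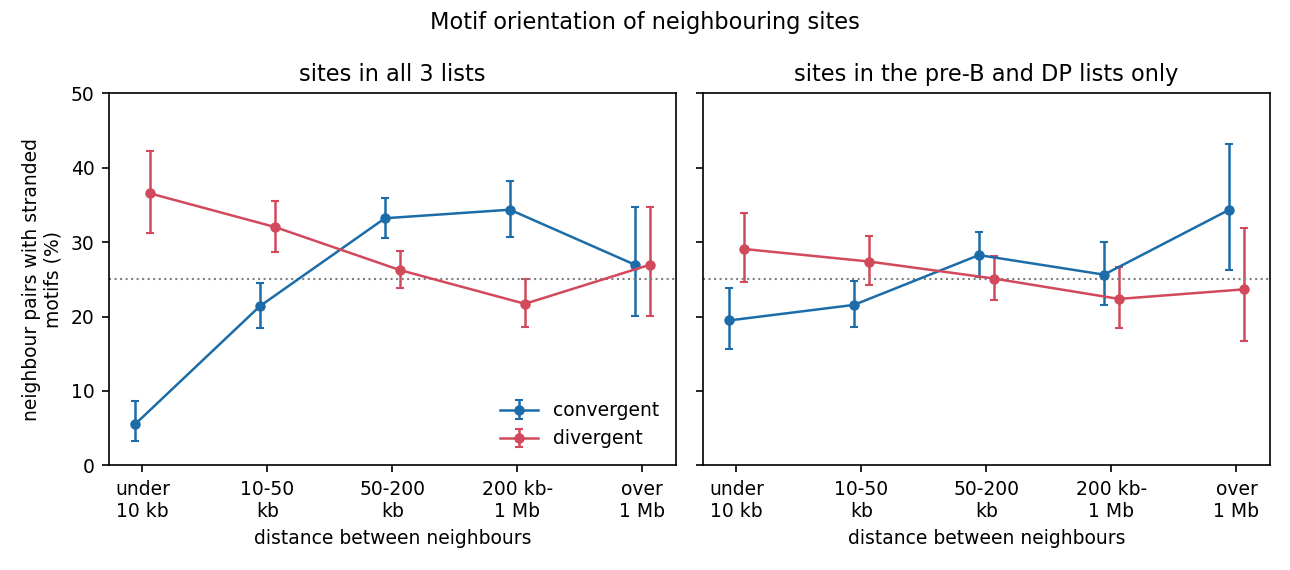
Neighbouring pairs with stranded motifs (%, y axis) that were convergent (blue) or divergent (red) by the distance between them (x axis), for sites in all 3 lists (left) and sites in the pre-B and DP lists only (right), with exact 95% intervals and a dotted line at the 25% of independent strands. On the left convergent pairs rise from 5.50% under 10 kb to 34.4% between 200 kb and 1 Mb. Tandem pairs, the most common kind at every distance, are not drawn.

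Along the genome the shared sites averaged 3.46 per Mb, from 2.43 on chromosome 3 to 5.79 on chromosome 11. They made up 16.7 to 20.2% of the Rad21 sites of each chromosome, so the density followed that of all sites, and Spearman's rank correlation of density with coding genes per Mb was 0.87 over the 19 chromosomes, which differ in base composition as well. The longest stretch without a shared site was 11.7 Mb on chromosome 14, with 12 coding genes, 2 of them with names of protocadherins. It held 6 Rad21 peaks in pre-B, 2 in DN and 5 in DP, and 11 CTCF peaks in pre-B cells. The next was 10.99 Mb on chromosome 1, with 10 coding genes and 0 DN peaks.

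Of 21281 protein-coding gene names, 5012 had a shared site in the gene or within 5 kb, or 23.6%. Most of these had a single site, and only 16 gene models had 5 or more. The annotation gives very long spans to Gm20388 (4434882 bp, 52 sites), Fgfr2 (3009069 bp, 17 sites) and Arfip1 (1391424 bp, 6 sites), so their counts are those of the regions they cover. Arhgap26 had 7 sites over a span of 774751 bp. Cdh23, a cadherin of hair cells with a span of 393743 bp, Ephb2 (188450 bp) and Snx29 (349825 bp) each had 6. The densest windows of 100 kb held 7 sites each, by Egfl7 and Agpat2 on chromosome 2, by Setd1b and Rhof on chromosome 5, and inside Gm20388 on chromosome 8. In the last window 5 matches were on the minus strand and 0 on the plus strand.

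Genes of both lymphoid lineages had shared sites, and the lists below were read against the 23.6% of all genes. Of 19 matched genes that B and T progenitors use in common, 10 had a shared site, or 52.6% (28.9 to 75.6). The site by Id2, an inhibitor of E proteins, stood at percentile 99.9 in pre-B, 97.1 in DN and 99.7 in DP. The site in an intron of Runx1, a factor of early haematopoiesis, stood at 91.8, 91.6 and 99.9. Jak1, a kinase of cytokine receptors, had 89.7, 73.0 and 91.3, and the site by Rag1, the recombinase gene these mice lack, had 76.0, 62.1 and 91.8. Bcl2, Ikzf1, Ikzf3 and Id3 also had a site, and the lowest values were those in Ptprc (63.5, 34.0 and 88.7) and Lmo2 (84.1, 2.66 and 62.5). No shared site was found by Tcf3, Tcf12, Il7r, Rag2, Dntt, Myb, Foxo1, Ets1 or Bcl11a.

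T lineage genes had a shared site in 9 of 19, or 47.4% (24.4 to 71.1). By Zap70, a kinase of the T cell receptor, the percentiles were 97.8 in pre-B, 96.1 in DN and 95.7 in DP. By Cd3g, a chain of the T cell receptor complex, they were 75.04, 82.9 and 93.3, and by Cd5 they were 95.9, 65.9 and 95.6. In Bcl11b, a factor of T cell commitment, they were 59.5, 92.4 and 99.2. Gata3, Tcf7, Cd4 and Lef1 had lower DN values, down to 3.37 in Lef1, and Cd3e, Cd3d, Cd8a, Lck and Notch1 had no shared site. These T cell genes thus had Rad21 sites in pre-B cells too, which the choice of sites requires. Of 20 B lineage genes 4 had one, or 20% (5.73 to 43.7): Blk, a kinase of the B cell receptor, with 98.6, 95.2 and 97.9, Ebf1, the early B cell factor, with 93.8, 99.5 and 97.9, Cd72 with 99.5, 83.3 and 97.7, and Spib with 89.7, 63.2 and 94.1. The genes without one include Cd79a, Pax5 and Irf4.

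Genes of the cohesin and CTCF machinery had a shared site in 9 of 20, or 45.0% (23.1 to 68.5). The site at the promoter of Ctcf itself stood at 92.3 in pre-B, 92.4 in DN and 98.8 in DP. The site in Ctcfl, its paralog of the germ line, stood at 81.2, 83.9 and 73.8, that at the promoter of Stag1, a cohesin subunit, at 70.1, 59.8 and 89.8, and that at the promoter of Pds5a, a cohesin regulator, at 82.9, 46.2 and 86.2. The other sites were lower in at least 1 list. The DN values were 31.7 by Smc3, where the site lay outside genes, 25.9 by Smc1b, 18.1 by Maz and 4.11 by Rec8. A pre-B value of 11.2 was found by Pds5b. Rad21 itself had no shared site, nor had Rad21l, Stag3, Nipbl, Mau2, Wapal, Esco1, Esco2, Cdca5, Zfp143 and Yy1. Housekeeping genes had one in 6 of 20, or 30% (11.9 to 54.3), led by Tubb5 (99.5, 89.8 and 99.7), Eef2, Rpl13a and Atp5b. Genes of other tissues had one in 2 of 19, or 10.5% (1.30 to 33.1), which were Gfap and Ins2. Loci with textbook CTCF or cohesin sites had one in 4 of 14 matched genes, or 28.6% (8.39 to 58.1): Grb10, an imprinted gene, with 97.7, 99.8 and 89.8, Hoxa13 with 93.5, 79.6 and 93.1, Hoxd13 with 62.3, 46.9 and 67.7, and Myc with 97.1, 39.3 and 96.0. The intervals of all lists but the lymphoid and T lineage lists include 23.6%. Without the 5 kb both of these lists fell to 26.3% (9.15 to 51.2), an interval that includes the 15.8% of all genes. Genes differ in length, and no test of a list was run.

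In the antigen receptor loci, taken from the outermost annotated gene segments, 55 of 405 Rad21 sites were shared, or 13.6% (10.4 to 17.3), against 18.8% over chromosomes 1 to 19. Igh held 21 of 120 (17.5%, 11.2 to 25.5), the TCRα/δ locus 24 of 180 (13.3%, 8.73 to 19.2), TCRβ 5 of 31 and TCRγ 3 of 7. Igκ held 2 of 62, or 3.23% (0.393 to 11.2), and the span of Igλ 0 of 5. Motif strands ran mostly 1 way within a locus. At Igh 17 of 18 stranded matches were on the plus strand, at TCRα/δ 17 of 21 on the minus strand and at TCRβ 4 of 4 on the minus strand. A span of annotated segments need not reach the 3′ regulatory region at the far end of Igh. The paper describes a cluster of CTCF sites there that point toward the V genes, opposite to those among the V genes. The Igh counts may therefore leave that cluster out.

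Some shared sites may not be separate places of binding. The authors kept a read when it had 3 or fewer places to map, and 38 shared sites, in 16 sets, had exactly the same 3 Rad21 scores as another shared site. In 15 of the 16 sets all widths were equal and 14 sets were on 1 chromosome. They include 3 triplets by Plac9, Gm9780 and Gm10393 on chromosome 14 and 2 sites of the TCRα/δ locus, chr14:53441101-53441857 and chr14:54136108-54136864, with scores of 102.6 in pre-B, 174.0 in DN and 486.2 in DP at both. Other sites of that locus had equal widths and nearly equal percentiles, such as chr14:53626891-53627989 (65.1 in pre-B, 54.5 in DN and 94.5 in DP) and chr14:53938077-53939175 (64.3, 54.5 and 94.5), so exact equality may miss further copies, and the site and strand counts of the locus may include them. Within such repeats the files cannot tell 1 bound copy from several.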

How the data were processed

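Rad21 ChIP-seq peaks of pre-B, DN and DP cells and CTCF peaks of pre-B cells and of pro-B cells cultured with IL7 were analysed, with 1 library per list. Per the study's methods, the authors mapped trimmed, duplicate-free reads with Bowtie (mm9), keeping those with up to 3 places, and called peaks against input with MACS 1.4.2 at an FDR of 1% or less. The Bowtie version differs between sources, and the submitters' processing notes name 0.12.9. The deposited score of each peak is derived by the authors' peak caller from its p-value, is not scaled for depth, and was ranked as a percentile within its list. Raw scores are printed as deposited and are not on 1 scale across lists. Read depth is unknown from these files, so the length of a list and the depth of its library cannot be told apart.

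Peaks were merged at 1 bp of overlap with Python 3.11.15 and numpy 2.4.6. Sequence and genes came from NCBIM37, the same build, with GENCODE M1. A site's middle within 1 kb of a protein-coding start was called a promoter, and genes were padded by 5 kb. Exact Clopper-Pearson 95% intervals (scipy 1.17.1) cover counting error only. No test between cell types was run. The scripts were tested on simulated data. Named sites were the 12 highest by lowest percentile, those without CTCF, the 3 leaning most to each list, and those at the edge of the rule. Of 140 listed genes, 9 did not match an annotated name. The members and lists were chosen with earlier results of these data known. The offsets, the common 12-base forms, the long gaps, the receptor loci, the equal scores and the paired sites of pre-B and DP were added after seeing the data. Alternatives were lists of equal length, a score minimum of 100, other overlaps, mismatch limits and distances, and the DN list left out.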

Additional observations from a re-analysis of the deposited data

Results flagged for a closer look

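Chromosome X was outside the rule, and its peaks were used in no comparison. Of 982 merged Rad21 sites there, 126 held a peak of all 3 lists, or 12.8% (exact 95% interval 10.8 to 15.1), beside 18.8% on chromosomes 1 to 19.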

How the results depend on the processing

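No paired analysis was possible because each antibody and cell type had 1 library. With lists of equal length, which keeps only the strongest peaks, 5026 sites or 33.5% were shared, with pre-B CTCF at 99.98%, IL7 CTCF at 99.96%, both at 99.96% and neither at 0.0199%, a motif match at 65.5%, a median width of 847 bp and median percentiles of 67.3 in pre-B, 67.7 in DN and 66.4 in DP. With scores of at least 100, 6961 sites or 21.9% were shared, with a median width of 814 bp and percentiles of 79.7, 54.9 and 81.4. Counting CTCF only where its peak's middle lay inside a site gave 98.7% for pre-B, 99.3% for IL7, 98.2% for both and 0.293% for neither. A limit of 1 mismatch gave a match at 23.7% and a limit of 3 at 94.5%. With 1 mismatch the convergent shares were 0% under 10 kb, 38.3% from 50 to 200 kb and 30.4% from 200 kb to 1 Mb. Within 2 kb of a start lay 11.5% of sites and within 5 kb 21.7%. With the gene body only, 26.3% of lymphoid progenitor genes, 26.3% of T lineage genes, 25% of machinery genes, 10% of B lineage genes and 15.8% of all genes had a site. Leaving out the DN list, chosen after seeing the data, gave 19878 sites or 43.8%, with pre-B CTCF at 92.9%, IL7 CTCF at 94.96%, both at 92.0% and neither at 4.13%. The cause of these shifts was not tested beyond what each setting changes by its construction. The other shares and medians stayed within the counting interval of the reported value, which is wide for lists of 20 genes.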
